A study of Mus musculus with 206 samples.

Results

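The genes described here are the 46 protein-coding mouse genes whose symbols begin with Nduf, of 21938 protein-coding genes in the GENCODE M21 annotation of the mm10 genome. They were chosen by symbol and by no measured value. For each gene, H3K27ac peaks that overlapped the 1 kb on either side of a transcription start site (TSS) of a protein-coding transcript were collected from every library, together with the regions of the brain region's deposited consensus list at the same place. H3K27ac is acetylation of histone H3 at lysine 27, a mark of active promoters and enhancers.

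All animals were wild-type C57BL/6NTac mice of both sexes, and brain tissue was taken in adulthood, 2 h after the adult injection. The groups were MOR-LPS (perinatal morphine, adult lipopolysaccharide), SAL-LPS (perinatal saline, adult lipopolysaccharide), MOR-SAL (perinatal morphine, adult saline) and SAL-SAL (saline at both times). Lipopolysaccharide (LPS) is a bacterial cell wall component that triggers an innate immune response. Dams received morphine sulfate at 10 mg/kg/day or saline by osmotic minipump, and their pups, raised by drug-naive surrogates, received 10 mg/kg morphine or saline 2 times a day on postnatal days 1 to 14. About 10000 neuronal nuclei per replicate, sorted for the neuronal protein NeuN, were profiled by a low-input microfluidic ChIP-seq method (MOWChIP-seq). The prefrontal cortex (PFC) gave 14 MOR-LPS, 11 SAL-LPS, 9 MOR-SAL and 8 SAL-SAL libraries. The hippocampus gave 10, 12, 11 and 11 in the same order of groups, the hypothalamus 10, 11, 12 and 8, and the striatum 15, 13, 7 and 10.

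Complex I (NADH:ubiquinone oxidoreductase) is the first enzyme of the mitochondrial respiratory chain. It takes electrons from NADH, passes them along a chain of iron-sulfur clusters to ubiquinone, and uses the energy to pump protons across the inner mitochondrial membrane. Its catalytic core is made of subunits shared with bacteria, some encoded by mitochondrial DNA and the others by nuclear Nduf genes. Accessory subunits surround the core in the matrix arm and the membrane arm, and assembly factors help to build the complex without remaining in it. Neurons depend on oxidative phosphorylation for most of their ATP. By role, the 46 genes comprised 7 core subunits, 9 accessory subunits of the matrix arm, 19 accessory subunits of the membrane arm, the acyl carrier protein Ndufab1, and 8 assembly factors. The remaining 2, Ndufa4 and Ndufa4l2, carry the name for historical reasons, since the protein of Ndufa4 is now placed in complex IV.

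The 46 genes lay on 17 chromosomes, so they formed no cluster. A TSS of another protein-coding gene lay within 1 kb of a TSS of 21 of the 46 members (45.7%), and each of these members had such a neighbour on the opposite strand. The share was 12.8% over all protein-coding genes and 18.3% over the 13620 genes that entered the rank test described later. At these promoters a peak cannot be assigned to the Nduf gene rather than to its partner. Ndufs1 and Eef1b2, for example, had start sites 3 bp apart, and Ndufb3 and Fam126b 61 bp apart.

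RefSeq promoter sequences (GRCm38.p6, 250 bases before to 50 bases after the start) were available for 40 of the 46 members. They are shown for the members the results turn on: Ndufb2, Ndufb3, Ndufv1, Ndufb7 and Ndufaf2. Ndufb2 was the promoter most often marked among the strongest peaks, and Ndufaf2 was one of the least often marked. A region shared by Ndufb3 and Fam126b was the only member region called between treatments, and several alternative settings did not keep that call. Ndufv1 and Ndufb7 were the highest and the lowest member for PFC against striatum in the full peak lists. Capitals mark the single match to a searched motif, where there was one.
Ndufb2, chr6:39592315-39592614, plus strand: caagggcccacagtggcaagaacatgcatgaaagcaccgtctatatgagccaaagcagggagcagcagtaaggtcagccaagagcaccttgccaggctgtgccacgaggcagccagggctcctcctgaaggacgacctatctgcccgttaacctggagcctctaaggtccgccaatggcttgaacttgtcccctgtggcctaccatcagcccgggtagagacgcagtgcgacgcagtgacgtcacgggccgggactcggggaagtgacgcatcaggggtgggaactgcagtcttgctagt
Ndufb3, chr1:58586147-58586446, plus strand: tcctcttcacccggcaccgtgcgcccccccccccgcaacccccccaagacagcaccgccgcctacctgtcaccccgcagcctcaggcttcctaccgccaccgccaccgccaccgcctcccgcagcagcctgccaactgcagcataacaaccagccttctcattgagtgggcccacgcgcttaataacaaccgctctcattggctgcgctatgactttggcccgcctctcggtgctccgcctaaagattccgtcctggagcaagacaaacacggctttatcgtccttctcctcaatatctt
Ndufv1, chr19:4012706-4013005, minus strand: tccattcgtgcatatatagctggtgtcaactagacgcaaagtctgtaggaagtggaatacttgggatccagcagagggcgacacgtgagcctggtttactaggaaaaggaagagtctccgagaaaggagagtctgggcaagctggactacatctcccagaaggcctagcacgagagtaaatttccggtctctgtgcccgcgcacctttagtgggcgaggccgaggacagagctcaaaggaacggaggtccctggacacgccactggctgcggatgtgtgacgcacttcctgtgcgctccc
Ndufb7, chr8:83566508-83566807, plus strand: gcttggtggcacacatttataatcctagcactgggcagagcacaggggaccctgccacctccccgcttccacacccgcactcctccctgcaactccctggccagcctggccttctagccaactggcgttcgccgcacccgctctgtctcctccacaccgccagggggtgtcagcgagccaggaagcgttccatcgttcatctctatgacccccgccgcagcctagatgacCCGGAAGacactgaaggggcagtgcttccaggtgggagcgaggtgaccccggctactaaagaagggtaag
Ndufaf2, chr13:108158576-108158875, minus strand: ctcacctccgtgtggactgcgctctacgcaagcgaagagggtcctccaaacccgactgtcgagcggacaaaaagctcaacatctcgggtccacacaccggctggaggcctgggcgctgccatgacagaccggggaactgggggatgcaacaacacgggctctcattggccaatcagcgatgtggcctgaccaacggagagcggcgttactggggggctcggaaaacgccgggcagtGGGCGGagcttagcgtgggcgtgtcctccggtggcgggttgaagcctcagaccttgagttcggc

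The capitals are CCGGAAG, the core of the ETS/GABPA motif, starting 20 bases before the Ndufb7 start, and GGGCGG, the Sp/KLF motif, starting 14 bases before the Ndufaf2 start. Over the 40 member promoters, the median GC content was 59.2% (range 45.3 to 70.7%), against 60.7% over 10570 promoters of genes in the rank test and 52.7% over all 32851 promoters of the table. The median number of CpG dinucleotides per 100 bases was 6.67 in members, 6.67 in genes of the rank test and 2.33 in all promoters. The members thus had the base composition of the marked promoters in general. Both strands were searched for 4 motifs of factors that act on nuclear mitochondrial genes. The NRF1 motif CATGCGC was in 7 of 40 member promoters (17.5%), against 6.86% of genes in the rank test and 3.91% of all promoters. The YY1 motif AAGATGGCG was in 6 (15.0%), against 2.92% and 1.4%. Matches to CCGGAAG were in 15.0% of members, against 17.1% of genes in the rank test and 8.86% of all promoters, and matches to GGGCGG were in 52.5%, against 62.8% and 35.7%. None of the 4 motifs was found in 10 of the 40 (25%), against 29.1% and 59.2%. A match is a string of letters and not a bound site.

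The 172 peak lists that were kept held 10811 to 143527 peaks, and 2 of the 174 ChIP lists were not counted: a PFC SAL-SAL list with 4371 peaks, and a hippocampus SAL-LPS list (replicate 5-2) identical to that of replicate 1-2. The PFC MOR-LPS list of replicate 12-2 holds peaks named for replicate 12-0. PFC libraries were made with another library kit than all others, so that kit and PFC cannot be told apart. Cell type markers were checked among the strongest peaks. Among each library's 10000 peaks of highest -log10 p, the neuronal list averaged 36.3 to 50.7% of its 10 genes by brain region, the astrocyte list 3.7 to 11% of its 6, the oligodendrocyte list 6.82 to 16.9% of its 8, the microglial list 0 to 0.758% of its 6 and the endothelial list 0 to 0.595% of its 4. In 1 PFC and 5 striatum libraries the oligodendrocyte markers reached 75 to 100% and the neuronal markers 0 to 20%. These were PFC and striatum SAL-SAL replicate 9-4 and striatum MOR-LPS replicates 15-3, 16-0, 16-2 and 7-1. In the PFC, the 3 cortex markers, among them Tbr1 and Neurod6, averaged 33.3% (range 0 to 100%) and the 4 striatum markers Drd1, Drd2, Adora2a and Ppp1r1b also 33.3% (range 0 to 75%), against 0% and 20.6% in the striatum libraries themselves. A cortex marker was marked in 21 PFC libraries, of which 13 also had a striatum marker, and in none of the other 21, of which 18 had a striatum marker. The PFC label was therefore not matched by its markers in all libraries, and PFC results are also given for these subsets. In hypothalamus libraries the hypothalamus markers averaged only 7.32% (range 0 to 25%). The hippocampus markers averaged 39.4% in hippocampus libraries and 40.7% in striatum libraries. Neither list therefore backed its label clearly. One PFC library, MOR-SAL replicate 13-1, stood apart with 11306 peaks, a peak at 4.87% of all genes and at 0 of the 46 members, and 75% of the hypothalamus markers.

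Promoters of complex I genes carried H3K27ac far more often than the typical gene. The median member had a peak in 91.7% of PFC libraries, 62.5% of those from the hippocampus, 74.4% from the hypothalamus and 72.2% from the striatum, against 28.6%, 22.7%, 22% and 15.6% for the median protein-coding gene. Against genes of the rank test, which had to be marked in some libraries, the gap was smaller, with medians of 76.2%, 54.5%, 56.1% and 51.1%. A peak was present in 50% or more of the 172 libraries for 39 of the 46 members. When each list was cut to its 10000 strongest peaks by -log10 p, the median member was marked in 40.5% of libraries in the PFC, 13.6% for hippocampus, 29.3% for hypothalamus and 31.1% for striatum, against 14.3%, 6.82%, 12.2% and 8.89% for the median gene of the rank test.

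**Figure D1:**
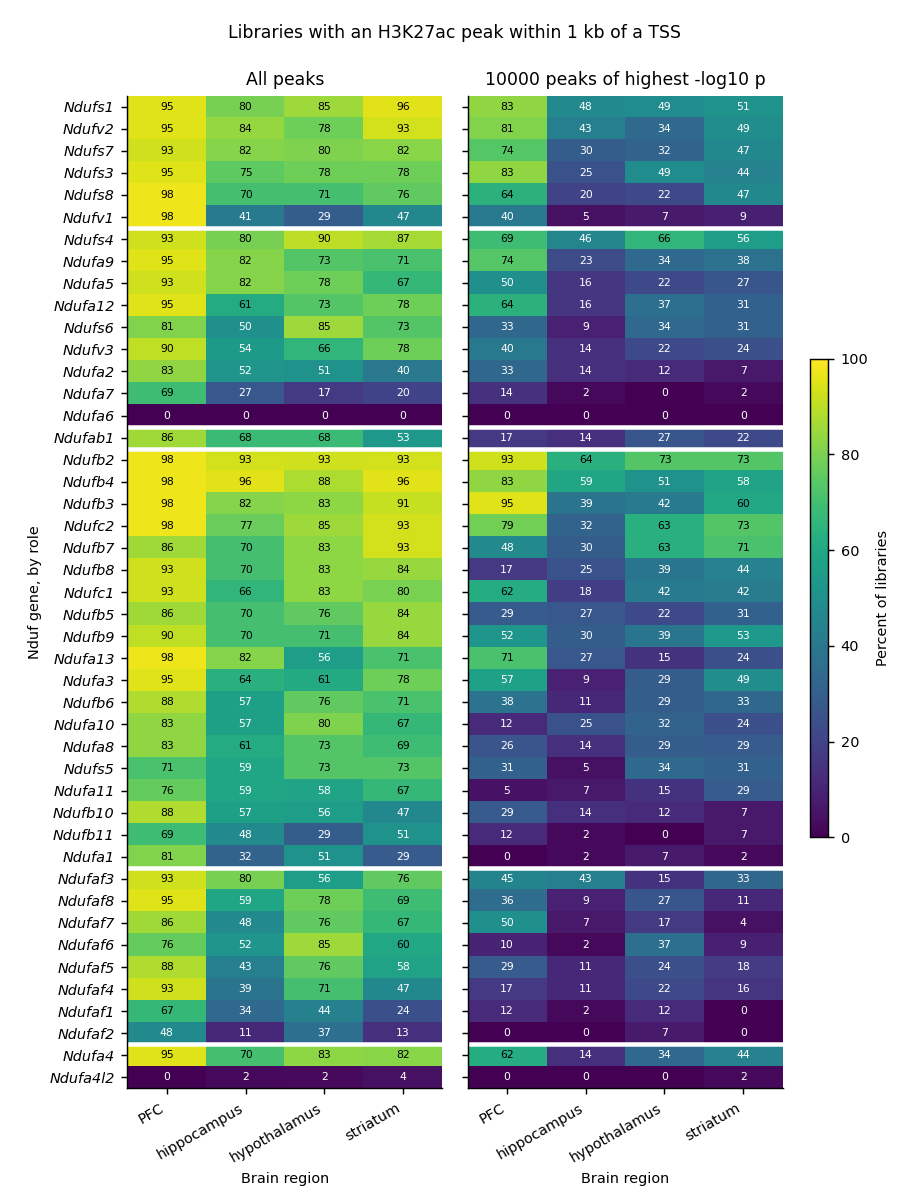
Share of libraries (percent, colour and number) with a peak within 1 kb of a TSS of 45 of the 46 Nduf genes (rows, grouped by role from the top: core, matrix arm, acyl carrier protein, membrane arm, assembly factors, not a complex I subunit) in each brain region (columns), for all peaks on the left and for the 10000 peaks of highest -log10 p on the right. Core subunits other than Ndufv1 were marked in 70.5 to 97.6% of libraries, whereas Ndufa6 was at 0% in every brain region.

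How often a promoter was marked depended on the length of the list. The PFC lists were the longest, with 76751 ± 32805 peaks (SD, n = 42), followed by the hippocampus with 71878 ± 32444 (n = 44), the hypothalamus with 57638 ± 25848 (n = 41) and the striatum with 56787 ± 24913 (n = 45). The number of marked members per library averaged 38.6 ± 8.5 for PFC, 27.8 ± 11.8 for hippocampus, 30.8 ± 9.2 for hypothalamus and 30.5 ± 8.8 for striatum (SD). The hippocampus thus had fewer marked members than the hypothalamus and striatum despite longer lists. In 172 libraries no more than 44 of the 46 were ever marked together.

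**Figure D2:**
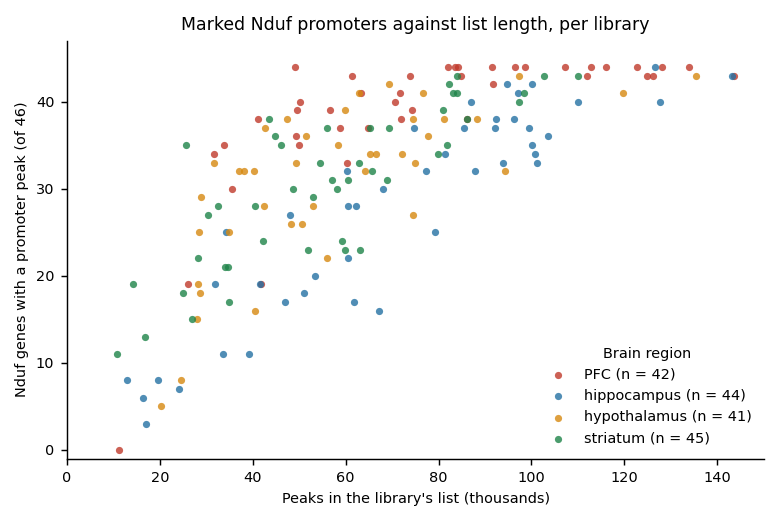
Number of the 46 Nduf genes with a promoter peak (y axis) against the number of peaks in the library's list (x axis, in units of 1000), 1 point per library, coloured by brain region. Libraries with more peaks tended to have more marked members, up to 44, and the PFC library with 11306 peaks had 0.

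Core subunits were the most consistently marked role, with a median of 84.3% of all libraries (range 53.5 to 89%) and 50% in the top 10000 peaks. Ndufs1, which carries several iron-sulfur clusters, was marked in 40 of 42 libraries from PFC, 35 of 44 from hippocampus, 35 of 41 from hypothalamus and 43 of 45 from striatum. Ndufs7, an iron-sulfur subunit near the ubiquinone-binding site, was marked in 39, 36, 33 and 37. Ndufs3 was marked in 40, 33, 32 and 35 of the same libraries, the iron-sulfur subunit Ndufs8 in 41, 31, 29 and 34, and the iron-sulfur subunit Ndufv2 in 40, 37, 32 and 42. The exception among core subunits was Ndufv1, which binds NADH and accepts its electrons. It was marked in 41 of 42 PFC libraries, but in 18 of 44 from hippocampus, 12 of 41 from hypothalamus and 21 of 45 from striatum.

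Accessory subunits of the membrane arm held the most frequently marked promoters of all. Ndufb2 and Ndufb4 each had a peak in 162 of 172 libraries (94.2%). In the top 10000 peaks Ndufb2 led with 130 libraries, and other members marked often there were Ndufb4 (108) and Ndufc2 (106), and Ndufb3 and the matrix-arm subunit Ndufs4 with 101 libraries each. The lowest of the membrane arm was Ndufa1 with 82 of 172 libraries (47.7%) and 2.91% in the top lists. Over its 19 genes the median was 76.7%.

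Assembly factors were the least marked of the larger groups, at a median of 66.8% of libraries and 17.8% in the top lists. Ndufaf2, a paralogue of the subunit Ndufa12, had a peak in 46 of 172 libraries (26.7%), and Ndufaf1, a factor for the early membrane arm, in 72 (41.9%). Ndufa12 itself was marked in 132. Among accessory subunits of the matrix arm (median 72.1%), Ndufa7, which shares its promoter with the ribosomal gene Rps28, was marked in 57 libraries. Ndufa4l2, a homologue of Ndufa4 best known as a hypoxia-induced gene, had a peak in 4.

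Ndufa6 was the only member without a peak in any library. It encodes an accessory subunit of the matrix arm that holds the acyl carrier protein. The absence of a peak does not tell an unacetylated promoter from reads that were never placed or were removed there, and the difference was not tested.

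At the marked promoters the summits sat downstream of the start. The median distance from the gene's 5′ end to the summit was +183 bp over 44 members in the PFC, +211 bp for hippocampus, +205 bp for hypothalamus and +212 bp for striatum, against +100, +118, +90.5 and +69.5 bp for genes in the rank test. Summits lay downstream in 65.9 to 72.7% of members, against 53.0 to 56.6% of genes in the rank test. The median fold enrichment of the members' highest peak was 8.02 for PFC, 5.66 for hippocampus, 5.43 for hypothalamus and 5.49 for striatum, against 6.30, 5.18, 5.06 and 4.87.

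The deposited consensus lists held a region at a member promoter for 28 members in the PFC (30 of 18272 regions), 8 for hippocampus (8 of 16201), 17 for hypothalamus (17 of 13788) and 43 for striatum (45 of 60013). Ndufa5, Ndufaf8, Ndufb2, Ndufb4 and Ndufs1 had such a region in all 4 brain regions, 14 members in 3, 9 in 2 and 16 in 1. Ndufa6 and Ndufaf2 had none. The hippocampus list held only Ndufaf3, Ndufs7 and Ndufv2 besides the 5 shared by all. Many of these regions also overlapped the promoter window of another gene: 15 for PFC, 3 for hippocampus, 6 for hypothalamus and 22 for striatum. The striatum list was the longest of the 4, and its members' regions had a peak in a median of 75.6% of libraries, against 57.8% for all regions at promoters.

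Differences between brain regions were tested on the rank of each promoter within its own library. Every gene took the highest -log10 p of its promoter peaks, and ranks ran from 0 to 100 over the 13620 genes with a peak in at least 10% of the libraries of 1 or more brain regions. Of the members, 44 entered the test, all but Ndufa6 and Ndufa4l2. Promoters without a peak shared a tied rank that fell as lists grew longer, with a median of 17.2 for PFC, 22.2 for hippocampus, 23.5 for hypothalamus and 24.7 for striatum libraries. Differences are therefore given both for full lists and for lists cut to the 10000 peaks of highest -log10 p (lists of equal length). Calls are at an adjusted p (limma-trend, Benjamini-Hochberg over all genes, two-sided) under 0.05. The same mice gave several brain regions, and fewer neurons of a type cannot be told apart from less acetylation per neuron.

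More complex I promoters were called higher than lower in PFC neurons against each other brain region, though most did not pass the test against the hypothalamus or the striatum. The difference was above 0 for 38 of 44 members against the hippocampus, 30 against the hypothalamus and 31 against the striatum. Against the hippocampus, 22 of 44 members were called higher in the PFC and 0 lower, and 13 were higher in both forms of the lists (0 lower). Of all 13620 genes, 22.4% were called higher and 24.3% lower (14.9% and 22% in both forms). At an unadjusted p under 0.05 by limma-trend, 25 members were higher and 0 lower, but the share of all genes at that threshold was not computed. Against the hypothalamus, 15 members were higher and 4 lower (9 and 4 in both forms), where the background was 24.3% and 28.5% (16.1% and 25.6% in both forms). Against the striatum, 14 were higher and 3 lower (7 and 3 in both forms), with a background of 16.3% and 23.4% (10.6% and 19.9%). In lists of equal length alone, 16 members were called higher and 4 lower against the hippocampus, 13 and 8 against the hypothalamus, and 9 and 5 against the striatum. Of all genes, 18%, 17.8% and 14.1% were higher and 40.7%, 40.2% and 34.6% lower in the same order. The tied rank of unmarked promoters in these lists had a median of 36.6 for PFC, 42.2 for hippocampus, 39.7 for hypothalamus and 41 for striatum. With only genes marked in at least 50% of the libraries of 1 or more brain regions, 43 members and 10399 genes remained. Of these members, 19 were called higher against the hippocampus (2553 of all genes), 13 against the hypothalamus (2690) and 9 against the striatum (1722). Lower were 0, 6 and 4 members (2318, 2649 and 1912 genes). Over all 44 members, the share called higher in full lists was 50% against the hippocampus, 34.1% against the hypothalamus and 31.8% against the striatum. This was above the background of all 13620 genes each time, and the share called lower was below it. The median difference over members was 10.7 points against the hippocampus, 6.36 against the hypothalamus and 4.97 against the striatum, and 6.35, 3.82 and 1.56 points in lists of equal length. Over all genes tested it was -0.46, -1.06 and -0.89 points, and -3.87, -3.36 and -3.07 in lists of equal length.

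**Figure D3:**
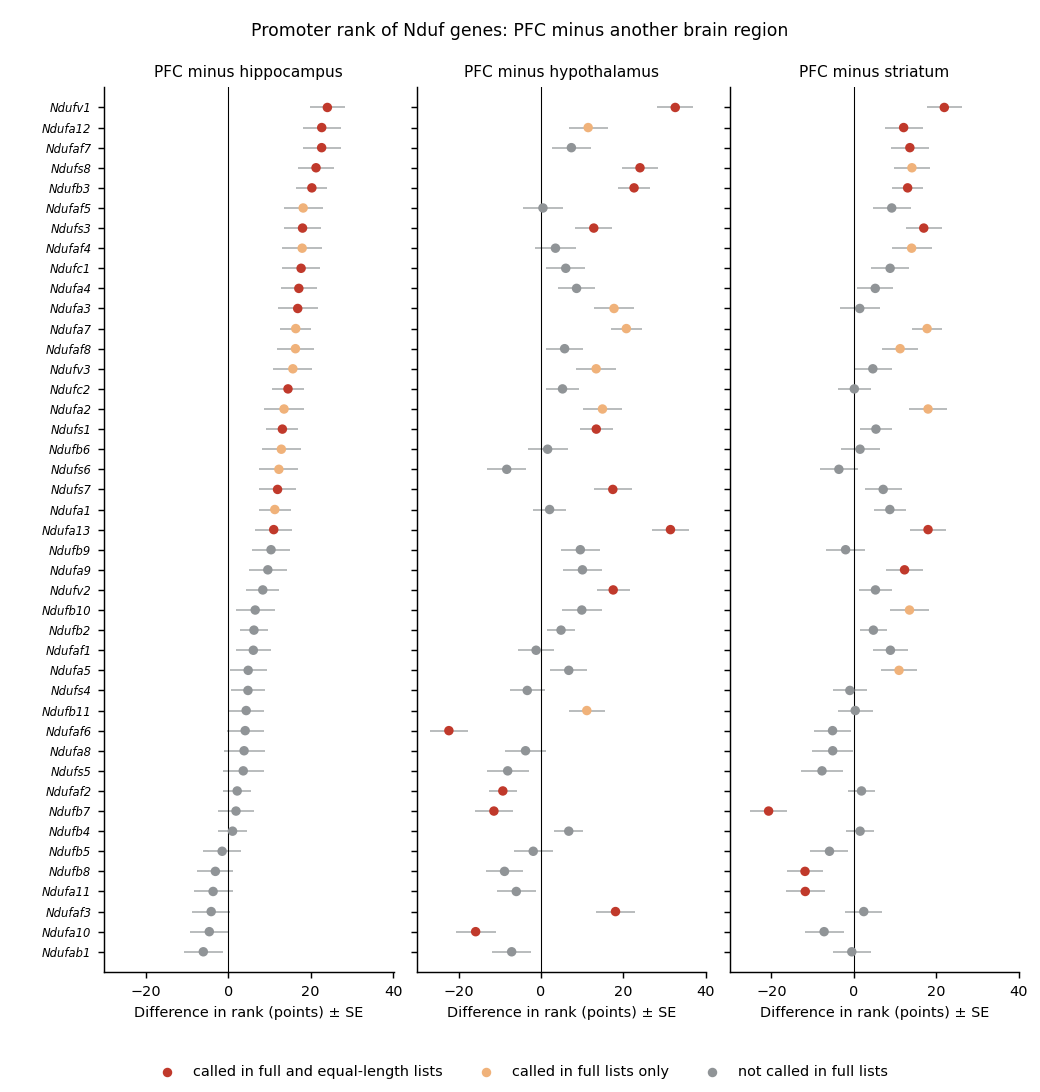
Difference in promoter rank (points, x axis) between the PFC and the hippocampus (left), hypothalamus (middle) and striatum (right) for 43 of the 44 Nduf genes in the test (rows), with bars of 1 SE and colour for the call. Ndufv1 was at +24.04, +32.55 and +21.94 points, and Ndufb7 was the lowest in the comparison with the striatum at -20.67.

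In full lists Ndufv1 showed the largest difference in all 3 comparisons. Its rank in PFC libraries was 42.9 at the lowest, 67.8 at the median and 94.4 at the highest. In the hippocampus these values were 15.0, 36.8 and 91.0, in the hypothalamus 11.4, 29.0 and 87.3, and in the striatum 16.8, 37.6 and 84.8. The ranges overlapped, but 40 to 42 of the 42 PFC libraries lay above the mean of the other brain region. The difference was 24.04 points against the hippocampus (SE 4.30, adjusted p = 7.39e-07), 32.55 against the hypothalamus (SE 4.37, adjusted p = 4.13e-11) and 21.94 against the striatum (SE 4.26, adjusted p = 1.60e-05), all by limma-trend. In lists of equal length it was 10.86, 11.60 and 11.23 points and was called each time, but there Ndufb3 had the largest difference, at 29.56 points against the hippocampus (SE 4.47), 30.39 against the hypothalamus (SE 4.54) and 21.06 against the striatum (SE 4.43). In full lists Ndufb3 was at 20.28, 22.56 and 13.05 points. In full lists, 5 of the 7 core subunits were called higher in the PFC than in the hippocampus, 6 than in the hypothalamus and 3 than in the striatum, and none lower.

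Ndufs8 ranked 48.5 to 99.0 in PFC libraries (median 86.4), against 17.5 to 91.9 in the hypothalamus (median 65.8). The difference was 24.00 points (SE 4.44, adjusted p = 1.28e-06, limma-trend), and 41 of 42 PFC libraries lay above the hypothalamus mean. Ndufa13, also known as GRIM-19, an accessory subunit of the membrane arm, ranked 48.5 to 97.3 in the PFC (median 82.1), against 17.5 to 93.7 in the hypothalamus (median 47.3) and 22.9 to 98.5 in the striatum (median 68.4). It was 31.39 points higher than in the hypothalamus (SE 4.51) and 18.00 points higher than in the striatum (SE 4.40), both also in lists of equal length. Ndufa12 and the assembly factor Ndufaf7 were next after Ndufv1 against the hippocampus, by 22.67 (SE 4.62) and 22.65 points (SE 4.60), and both held in lists of equal length. Ndufa2, a small subunit of the matrix arm, was 18.00 points higher in the PFC than in the striatum (SE 4.72), but in lists of equal length the difference was 7.52 points with an adjusted p of 0.0770 by limma-trend.

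The members that ranked lower in the PFC were Ndufb7, Ndufa10, Ndufaf2 and Ndufaf6 against the hypothalamus and Ndufb7, Ndufb8 and Ndufa11 against the striatum. Ndufb7, a membrane-arm subunit on the intermembrane side, ranked 17.0 to 94.7 in the PFC (median 69.5), against 37.6 to 99.9 in the striatum (median 93.1) and 20.2 to 99.3 in the hypothalamus (median 87.3). It was lower in the PFC by -20.67 points against the striatum (SE 4.44) and by -11.43 against the hypothalamus (SE 4.55). Ndufaf6, an assembly factor with a fold like phytoene synthases, ranked 17.7 to 71.6 in the PFC (median 47.2), against 20.1 to 98.6 in the hypothalamus (median 75.6), a difference of -22.35 points (SE 4.59, adjusted p = 1.33e-05, limma-trend). Ndufa10 differed by -15.86 points from the hypothalamus, and Ndufb8 and Ndufa11 by -11.84 and -11.78 from the striatum. All of these were called in both forms of the lists. Ndufaf2, however, had a peak in 0 of 42 PFC and 3 of 41 hypothalamus lists of equal length, so that its value there is nearly all the tied rank of unmarked promoters, and its call rests on full lists (-9.27 points, SE 3.40).

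**Figure D4:**
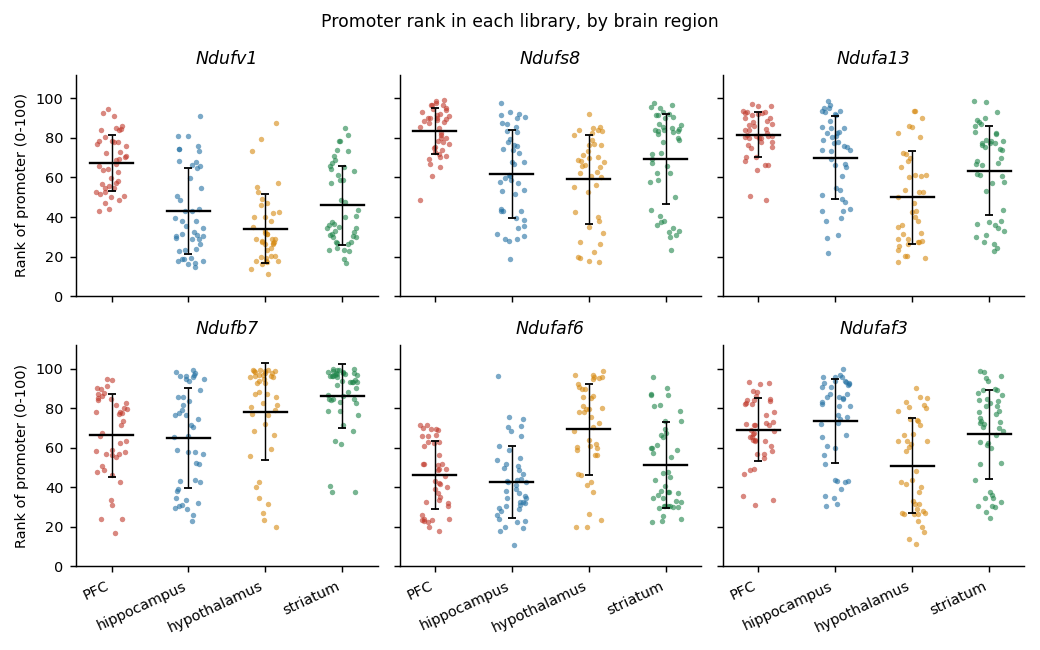
Rank of the promoter (0 to 100, y axis) in every library (points) of each brain region (x axis) for 6 Nduf genes, with the mean (line) and 1 SD (bar). Ndufv1, Ndufs8 and Ndufa13 sat highest in the PFC, Ndufb7 in the striatum (mean 86.25) and Ndufaf6 in the hypothalamus (mean 69.21), and the ranges of the brain regions overlapped for all 6.

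These PFC differences were examined in subsets of the PFC libraries chosen after seeing the data. With the 21 PFC libraries that had a cortex marker, 15 members were called higher and 0 lower than in the hippocampus, 10 and 2 against the hypothalamus, and 6 and 1 against the striatum. With the 21 that had none, the counts were 20 and 0, 13 and 3, and 8 and 1. All members called with the full set kept their direction in both subsets (22 of 22, 19 of 19 and 17 of 17). These members were picked by calls in the same PFC libraries that were then split. Agreement in direction was thus largely built in and is no independent check. Ndufv1 was 24.82 and 23.29 points above the hippocampus in the libraries with and without a cortex marker. Without MOR-SAL replicate 13-1 the counts were 24 and 0, 17 and 4, and 14 and 3, and without MOR-LPS replicate 12-2 they were 22 and 0, 15 and 4, and 14 and 2. Peak names in some PFC lists carry a flow cell identifier. With the 8 libraries of 1 flow cell alone the counts were 4 and 0, 6 and 1, and 1 and 0, with the 9 of another 8 and 0, 7 and 1, and 2 and 1, and with the 25 without an identifier 20 and 0, 15 and 2, and 11 and 1. Directions were kept in 21 of 22, 18 of 19 and 17 of 17 members in the smallest of these sets, with the same limit. The contribution of the library kit to the PFC differences cannot be told apart from the brain region.

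The 3 other brain regions differed less from each other. Between hippocampus and hypothalamus, 2 members were called higher in the hippocampus and 8 lower (1 and 2 in both forms of the lists), with a background of 14.1% and 14% (6.81% and 5.48% in both forms). Between hippocampus and striatum, 0 were higher and 6 lower (0 and 3 in both forms), where 11.2% and 10.4% of all genes were called (3.87% and 2.84%). Between hypothalamus and striatum, 2 were higher and 4 lower (1 and 0 in both forms), with a background of 9.16% and 9.39% (3.07% and 2.87%). The shares of members called higher were below the background in these 3 comparisons in full lists. The shares called lower were 18.2%, 13.6% and 9.09%, but with a term for the number of peaks 16 members (36.4%) were lower in the hippocampus than in the hypothalamus and 14 (31.8%) than in the striatum, against 14.7% and 12.5% of all genes. At an unadjusted p under 0.05 by limma-trend, 4 members were higher and 16 lower in the hippocampus than in the hypothalamus, and 0 higher and 15 lower than in the striatum. The share of all genes at that threshold was not computed, so these counts have no background.

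The members that did differ between these regions included several assembly factors. Ndufaf3 ranked 30.6 to 99.6 in the hippocampus (median 81.7), against 11.4 to 90.2 in the hypothalamus (median 48.3), a difference of 22.20 points (SE 4.58). Ndufaf6 went the other way, with 10.7 to 96.0 in the hippocampus (median 40.3), against a median of 75.6 in the hypothalamus, a difference of -26.45 points (SE 4.54). It was also 17.19 points higher in the hypothalamus than in the striatum (SE 4.54), where its median was 45.2. These 3 differences were called in both forms of the lists, as was Ndufb7, which was lower in the hippocampus than in the striatum by -22.55 points (SE 4.42), with medians of 68.1 and 93.1. Ndufa3, a membrane-arm subunit, was lower in the hippocampus than in the striatum by -15.41 points (SE 4.77), with medians of 61.8 and 82.3, also in both forms.

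Other differences were called in full lists only. Ndufa13 was 20.36 points higher in the hippocampus than in the hypothalamus, whereas Ndufs6, a zinc-binding subunit of the matrix arm, and Ndufaf5 were lower by -20.60 and -17.70. Ndufs6 was also -15.91 points lower in the hippocampus than in the striatum. Between hypothalamus and striatum, Ndufa3, Ndufaf3 and Ndufa13 were at -16.27, -15.65 and -13.39 points, and Ndufaf2 at +11.13. In lists of equal length these differences had adjusted p-values of 0.0561 to 0.587 by limma-trend. Ndufa1, called 11.29 points higher in the PFC than in the hippocampus in full lists, was called lower in lists of equal length (-6.24 points, SE 1.78, adjusted p = 0.00155, limma-trend). It had a peak in 0 of 42 PFC and 1 of 44 hippocampus lists cut in this way, so that the value in cut lists is nearly all that of the tied rank.

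Genes of the other respiratory chain complexes were also called higher in the PFC more often than lower against the hippocampus. There, 3 of 4 complex II, 5 of 9 complex III, 7 of 14 complex IV and 6 of 16 complex V genes in the test were called higher in the PFC, and 2 complex IV genes lower. The background was 22.4% of all genes higher and 24.3% lower. In both forms of the lists 3, 5, 6 and 4 were higher, and 2 complex IV genes lower. Of 11 complex I assembly factors with other names, 4 were called higher. Among 9 regulators of nuclear mitochondrial genes, such as Nrf1, Gabpa and Ppargc1a, 1 was called higher and 1 lower. The median difference was 14.0, 9.41, 11.4 and 5.27 points for complexes II to V, 8.96 for the other assembly factors and -2.62 for the regulators, against 10.7 for the Nduf genes. In lists of equal length these medians were 8.91, 13.1, 3.64, 5.35, 4.05 and -3.67, against 6.35 for the Nduf genes. Against the hypothalamus, 2 of 4 complex II, 3 of 9 complex III, 7 of 14 complex IV and 5 of 16 complex V genes were higher. There 3 complex IV and 2 complex V genes were lower, with a background of 24.3% higher and 28.5% lower. In both forms 2, 3, 4 and 4 were higher, and 2 complex IV and 2 complex V genes lower. Against the striatum, 2, 4, 8 and 3 were higher, and 4 complex IV and 3 complex V genes lower, with a background of 16.3% and 23.4%. In both forms 2, 4, 6 and 2 were higher, and 3 complex IV and 2 complex V genes lower. Differences between the lists were not tested. The complex IV list was built from symbol prefixes and held 18 genes, of which 14 entered the test. Over all 18, promoters were marked less often, at a median of 73.8% of PFC libraries and 45.1 to 47.7% elsewhere.

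The treatment comparisons asked whether perinatal morphine or adult LPS changed acetylation at these promoters. They were made within each brain region on the ranks of all its consensus regions, with sex as a covariate (limma-trend, adjusted over all regions). For treatment comparisons, lists of equal length were cut to the shortest list kept for that brain region. This was 11306 peaks for PFC, 13021 for hippocampus, 20170 for hypothalamus and 10811 for striatum. In the PFC, 0 of 30 member regions were called in any of the 4 comparisons or in their interaction, the morphine difference under LPS minus that at baseline, and 0% of all 18272 regions were. At an unadjusted p under 0.05 there were 3 member regions for MOR-LPS against SAL-LPS, 2 for MOR-SAL against SAL-SAL, 2 for SAL-LPS against SAL-SAL, 4 for MOR-LPS against MOR-SAL and 1 for the interaction. These were 10.0%, 6.67%, 6.67%, 13.3% and 3.33% of the member regions, against 11.3%, 2.96%, 6.54%, 7.81% and 7.07% of all regions. The PFC counts of 0 were unchanged without replicate 13-1, without replicate 12-2 and with the libraries that had a cortex marker. The hippocampus also gave 0 of 8 in each, where 0.00617% of 16201 regions were called for MOR-SAL against SAL-SAL and for the interaction and 0% otherwise. Its unadjusted counts were 1 for MOR-LPS against SAL-LPS (7.56% of all regions), 1 for SAL-LPS against SAL-SAL (9.59%) and 0 in the others (5.64 to 6.09%).

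In the hypothalamus 0 of 17 member regions were called. Of its 13788 regions, 4.31% were for MOR-LPS against SAL-LPS, 3.84% for MOR-LPS against MOR-SAL, 0.305% for SAL-LPS against SAL-SAL, 1.86% for the interaction and 0% for MOR-SAL against SAL-SAL. With so few member regions, counts of 0 are little different from these shares. At an unadjusted p under 0.05 there were 0, 2, 2, 1 and 2 member regions in the same order of comparisons. These were 0%, 11.8%, 11.8%, 5.88% and 11.8% of the member regions, against 21.3%, 20.4%, 12.2%, 18.8% and 8.04% of all regions. The median difference over members was 6.15 points for MOR-LPS against SAL-LPS (range -15.55 to 20.41), against -0.34 over all regions. In the striatum 0 of 45 were called for MOR-LPS against SAL-LPS, where 2.32% of 60013 regions were, 0 for MOR-SAL against SAL-SAL (0.00667%) and 0 for SAL-LPS against SAL-SAL (0%). The unadjusted counts were 12, 6 and 2 (26.7%, 13.3% and 4.44% of the member regions, against 20.4%, 5.57% and 5.1% of all regions). For MOR-LPS against MOR-SAL (0.253% of all regions) and for the interaction (0.0167%), 1 of 45 was called, the same region in both.

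That region was a stretch of 955 bp at chr1:58586251-58587205, over the start of Ndufb3 and of Fam126b on the other strand. Ndufb3 encodes a small accessory subunit of the membrane arm, and its start site at chr1:58586384 lies inside the region. Ranks among the 60013 striatum regions were 82.7 at the lowest, 93.2 at the median and 99.5 at the highest in MOR-LPS libraries, and all 15 had a peak there. In SAL-LPS libraries they were 25.3, 73.4 and 96.8, with a peak in 10 of 13. The 7 MOR-SAL libraries were at 25.3, 35.2, 36.4, 70.9, 76.5, 83.0 and 94.4, with a peak in the upper 4. In SAL-SAL libraries they were 82.2, 94.4 and 97.4, with a peak in all 10. All MOR-LPS and SAL-SAL libraries lay above 82, whereas SAL-LPS and MOR-SAL spread over most of the scale and overlapped both. The 3 MOR-SAL libraries without a peak and the next lowest were from females, and the upper 3 from males.

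The mean rank was 92.27 ± 5.29 in MOR-LPS libraries, 69.28 ± 24.48 for SAL-LPS, 60.23 ± 27.34 for MOR-SAL and 92.05 ± 5.99 for SAL-SAL (SD). MOR-LPS libraries ranked higher than MOR-SAL libraries by 31.38 points (SE 7.64, adjusted p = 0.0394, limma-trend), and 15 of 15 lay above the MOR-SAL mean. Under LPS the difference for MOR-LPS against SAL-LPS was 21.10 points (SE 6.5, adjusted p = 0.0534), and at baseline that for MOR-SAL against SAL-SAL was -31.99 points (SE 8.20, adjusted p = 0.282). For SAL-LPS against SAL-SAL it was -21.71 points (SE 7.06, adjusted p = 0.964). The interaction was 53.09 points (SE 10.44, adjusted p = 0.0203, limma-trend). The fold enrichment of the peak had a median of 6.81 in MOR-LPS, 4.31 in SAL-LPS, 3.70 in MOR-SAL and 6.30 in SAL-SAL libraries, with 0 for a library without a peak.

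**Figure D5:**
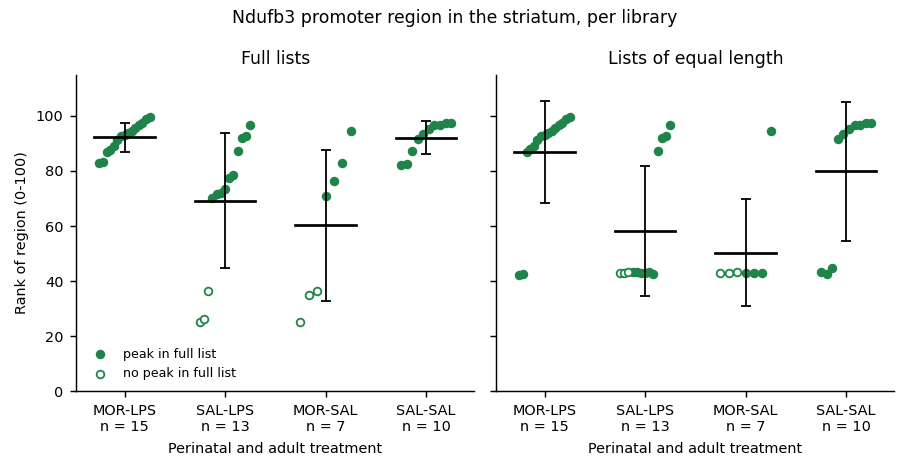
Rank (0 to 100, y axis) of the 955 bp region at the Ndufb3 and Fam126b starts among striatum consensus regions in each library (points, open where the full list had no peak), by treatment group (x axis), with the mean (line) and 1 SD (bar), in full lists (left) and in lists of equal length (right). In full lists the 15 MOR-LPS libraries were between 82.7 and 99.5, and the 7 MOR-SAL libraries between 25.3 and 94.4.

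The call did not hold in lists of equal length, where the difference for MOR-LPS against MOR-SAL was 36.99 points with an adjusted p of 0.189, and the interaction was 59.55 points with an adjusted p of 0.491, both by limma-trend. The libraries differed in other measures too. Among the 10000 strongest peaks, oligodendrocyte markers (8 genes, among them Mbp and Cnp) averaged 31.7% ± 37.5 in MOR-LPS libraries (range 0 to 100%), against 9.6% in SAL-LPS, 7.14% in MOR-SAL and 11.3% in SAL-SAL. With terms for the marker shares the values were 22.80 points (adjusted p = 0.409) and 45.34 points (adjusted p = 0.603, limma-trend). MOR-LPS lists were the longest, with 65739 ± 30144 peaks, against 43372 ± 12664 in MOR-SAL lists (SD). Leaving out 1 library at a time, MOR-LPS against MOR-SAL was called in 14 of 22 fits (26.1 to 36.9 points, adjusted p 0.0138 to 0.123) and the interaction in 42 of 45 (48.0 to 59.0 points, adjusted p 0.0109 to 0.0602). The call for MOR-LPS against MOR-SAL was lost without MOR-LPS replicates 15-3, 16-0, 16-2, 16-4 or 7-1 or MOR-SAL replicates 15-4, 16-1 or 7-2, and that of the interaction without MOR-SAL 16-1, SAL-LPS 1-4 or SAL-SAL 9-4. The second Ndufb3 region of the striatum list, chr1:58584314-58586063 on the Fam126b side, was not called in any comparison.

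In other brain regions the rank of the Ndufb3 promoter among genes put the groups in other orders, although the MOR-LPS median was above that of MOR-SAL in all 4 brain regions. In the PFC its medians were 96.4 in MOR-LPS, 97.2 in SAL-LPS, 88.6 in MOR-SAL and 96.0 in SAL-SAL libraries. In the hippocampus they were 93.0, 65.8, 79.0 and 72.0, and in the hypothalamus 79.7, 72.7, 68.7 and 73.4. In the striatum on the same scale they were 89.3, 71.5, 82.1 and 91.2. No test of the difference between brain regions was made.

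The remaining comparisons are represented by the member region of smallest p, none of which was called (limma-trend). In the PFC, the region of Ndufa3, shared with Oscar, ranked higher in MOR-LPS libraries (median 86.8, range 52.8 to 97.2) than in MOR-SAL libraries (median 63.8, range 12.6 to 82.1), by 30.19 points with an adjusted p of 0.296, and by 20.55 points than in SAL-LPS libraries with an adjusted p of 0.306. Ndufb4 was at -32.30 points for MOR-SAL against SAL-SAL, with all 9 MOR-SAL libraries below the SAL-SAL mean, and Ndufa12 at 20.62 for SAL-LPS against SAL-SAL. The interaction of smallest p in the PFC was that of Ndufs6, shared with Mrpl36, at 34.85 points. In the hippocampus Ndufb4 was at -18.65 points for MOR-LPS against SAL-LPS, 18.98 for SAL-LPS against SAL-SAL and -21.74 for the interaction, Ndufs7 at -17.39 for MOR-SAL against SAL-SAL, and Ndufa5, shared with Asb15, at 19.26 for MOR-LPS against MOR-SAL. Adjusted p-values there were 0.472 to 0.932.

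In the hypothalamus the region of Ndufb9, shared with Tatdn1, had medians of 31.4 in MOR-SAL and 47.3 in SAL-LPS libraries, against 79.0 in SAL-SAL libraries. The differences from SAL-SAL were -32.63 points (SE 12.26, adjusted p = 0.429) and -29.71 points (SE 12.08, adjusted p = 0.260) by limma-trend, and both comparisons share the 8 SAL-SAL libraries. Ndufa12 was 29.54 points higher in MOR-LPS than in MOR-SAL libraries (SE 11.25, adjusted p = 0.103), with medians of 68.8 and 29.8 and all 10 MOR-LPS libraries above the MOR-SAL mean. Ndufb8 was at 20.41 points for MOR-LPS against SAL-LPS, and Ndufa9, near the ubiquinone pocket, at 39.43 for the interaction (SE 16.75). Ndufb9 encodes a membrane-arm subunit, and Ndufa12 sits on the matrix arm.

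Although none was called, member regions of the striatum lay mostly on one side for MOR-LPS against SAL-LPS. Of 45, 40 ranked higher in MOR-LPS libraries (88.9%), against 44.9% of all 60013 regions, with a median of 8.51 points for members and -1.47 for all. Only 12180 of the 60013 regions lay at promoters. On average 35.8% of all genes had a promoter peak in MOR-LPS libraries, against 27.3% in SAL-LPS libraries. Among the 10000 strongest peaks these shares were 13.2% and 9.94%. Whether members leaned more than promoters in general was not tested. An unadjusted p under 0.05 was reached by 12 of the 45 member regions (26.7%), against 20.4% of all regions. After the Ndufb3 region the smallest p belonged to Ndufs8, with means of 80.88 ± 18.94 in MOR-LPS and 59.28 ± 29.94 in SAL-LPS libraries (SD), a difference of 23.61 points with an adjusted p of 0.0890 by limma-trend. The other complexes shared this lean, with medians of 7.39, 9.10, 8.34 and 9.55 points for complexes II to V, 9.21 for the other assembly factors and 9.03 for the regulators. Among their regions those of Atp5l, a subunit of the ATP synthase (26.6 points, SE 6.09, adjusted p = 0.0276), and of Pprc1, a coactivator related to PGC-1 (29.7 points, SE 8.82, adjusted p = 0.0475), were called higher in MOR-LPS by limma-trend. MOR-LPS lists of the striatum were longer and their oligodendrocyte marker shares higher, as given above. With terms for the marker shares the smallest adjusted p among member regions was 0.7158 by limma-trend. The difference at the Ndufb3 region was 18.22 points with these terms and 21.10 without them. What part cell composition or list length had in this lean was not tested.

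When striatum lists of equal length were compared over gene promoters, an alternative added after seeing the data, 5 members were called for MOR-LPS against SAL-LPS, but so were 3728 of the 13620 genes. Ndufb3 (27.1 points, SE 8.76) and Ndufs6 (27.7 points, SE 8.10) were higher, with a peak in 27 and 14 of 45 cut lists. Ndufa1 (-7.59), Ndufaf1 (-3.24) and Ndufaf2 (-3.24) were lower, but Ndufa1 had a peak in 1 of the 45 cut lists and the other 2 in 0, so that their values are those of the tied rank of unmarked promoters.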

How the data were processed

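H3K27ac was profiled in NeuN+ nuclei of 4 brain regions, and peak lists and consensus regions were analysed. Per the study's methods, reads were trimmed by the authors (Trim Galore 0.6.7), mapped to mm10 (Bowtie2 2.4.5), cleared of duplicates (SAMtools 1.15.1) and of blacklisted regions. MACS2 2.2.7.1 then gave each library's peaks at q 0.05, and the authors built consensus lists per brain region with DiffBind 3.10.1. The deposited peak lists give a score, a fold enrichment, a -log10 p and a -log10 q per peak. The deposited consensus lists give positions only, so no read counts were tested and sequencing depth is unknown beyond the number of peaks. The 32 input libraries were not used.

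Each consensus region, or each gene's promoter (TSS ± 1 kb), took the highest -log10 p of overlapping peaks (at least 1 bp), or 0, and was ranked from 0 to 100 within its library. Lists under 10000 peaks were left out and identical lists counted once. Ranks were fitted with limma-trend (limma 3.58.1, R 4.3.3), with sex, and, between brain regions, treatment, as covariates, and p-values were adjusted by Benjamini-Hochberg over all features. The code of the fit was checked by redrawing group labels and adding a fixed shift to some regions. The estimates had to rise by that shift, so this checks the code and not the results. Ranks compress differences among strong peaks and depend on list length. Replicate names recur across brain regions, so the name was used as an animal block, and its first part, taken as the litter although the labels do not say so, as a litter block. Their consensus correlations were 0.0248 for the animal and -0.0159 to 0.0336 for the litter, and neither entered the reported fits.

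The members and gene lists were chosen with earlier results of these data known. Members named with values were those called in a treatment comparison, otherwise that of smallest p, up to 3 of largest difference per direction between brain regions, the 5 marked in fewest and the 5 in most libraries, and the 7 core subunits. Alternatives were lists of equal length, a stricter q, other overlaps and windows, terms for peak number or marker shares, blocks, other gene filters and leaving out libraries. Analyses used Python 3.11.15, and promoter sequences are from RefSeq. Values of 1 member, which entered all counts, are not reported here.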

Additional observations from a re-analysis of the deposited data

Results flagged for a closer look

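In the PFC, 1 library stood far below its group in the number of Nduf genes with a promoter peak. MOR-SAL replicate 13-1 had 0 of 46, whereas the median of the 9 libraries was 41. Its list held 11306 peaks, and 4.87% of all genes had a promoter peak. PFC SAL-SAL replicate 9-0 was also far from the others, with 19 of 46 in a list of 26091 peaks, against a median of 38.5 over 8 libraries. The number of marked members was examined in this way in 7 groups of 4 to 10 libraries, and the rank of the Ndufb3 region in 2 striatum groups, of which chance would mark about 1 in 20. The third result is the Ndufb3 region of the striatum, for which the morphine difference under LPS and that at baseline differed by 53.09 points (SE 10.44, adjusted p = 0.0203, limma-trend), with 21.10 points under LPS and -31.99 at baseline. In lists of equal length the adjusted p was 0.491 and the difference 59.55 points. The range of the adjusted p over the other settings is given in the next part.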

How the results depend on the processing

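Of 372 values recomputed for the counts of called members and the median shares, 326 stayed within 1.5 times the reported count or the spread. None of these counts and shares reversed. Among named genes, 342 kept their call and 67 lost it with the same direction. Ndufa1 for PFC against hippocampus is not among these values. It was called higher in full lists and lower in lists of equal length, as given above. The interaction, the fits without 1 striatum library, the gene promoter table in lists of equal length, the lists of at least 30000 peaks and the subsets of PFC libraries were chosen after seeing the data. For MOR-LPS against MOR-SAL in the striatum, the 1 called region became 0 in lists of equal length, with a term for the number of peaks, with terms for marker shares, in lists of at least 30000 peaks and in either form of the gene promoter table, and ranged from 0 to 2 without 1 library. The interaction became 0 under the same settings and ranged from 0 to 1. The adjusted p of the Ndufb3 region was 0.0570, 0.409 and 0.0857 with the peak-number term, the marker terms and the longer lists, and 0.0526, 0.603 and 0.0551 for the interaction (limma-trend). For MOR-LPS against SAL-LPS, 1 member was called with the peak-number term (Ndufb3, adjusted p = 0.0435) and 5 in the gene promoter table with lists of equal length.

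Between brain regions, members called in either direction with PFC libraries of 1 flow cell were 4 and 8 against the hippocampus, 7 and 8 against the hypothalamus, and 1 and 3 against the striatum. With a cortex marker they were 12 against the hypothalamus and 7 against the striatum, and without one 9 against the striatum. With the peak-number term the counts were 11 for PFC against striatum, 18 for hippocampus against hypothalamus (16 of them lower) and 14 for hippocampus against striatum (all lower). In lists of equal length they were 6 for hippocampus against hypothalamus, 3 for hippocampus against striatum and 1 for hypothalamus against striatum, and with no gene filter 3 for hippocampus against striatum. The median shares in lists of equal length were 40.5% for PFC, 13.6% for hippocampus, 29.3% for hypothalamus and 31.1% for striatum, since fewer peaks were counted. The causes of the other changes were not tested.

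With a replicate block for the litter, the Ndufb3 difference for MOR-LPS against MOR-SAL was 31.37 points (adjusted p = 0.0394, limma-trend), and with a replicate block for the animal 9 members rather than 8 were lower in the hippocampus than in the hypothalamus. The blocks changed no other count. Peak lists without read counts limit precision: a promoter just under the peak threshold cannot be told apart from one without signal.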

Other observations

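Ndufa1 and Ndufb11 are the X-linked members. Ndufa1 had a peak in 49 of 92 libraries from females (53.3%) and in 33 of 80 from males (41.2%), and Ndufb11 in 50 (54.3%) and 35 (43.8%). Among autosomal members such a gap was also seen, for example for Ndufb10 with 69.6% in females and 52.5% in males, and it was small or of the other sign for Ndufv2, with 84.8% and 91.2%. No test was made.

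Ndufa1 had a peak in 34 of 42 PFC libraries (81.0%) and in 0 of them among the strongest. Ndufb3 was marked in 41 of 42 PFC libraries, with a median fold enrichment of 13.2, against 6.35 for hippocampus, 5.56 for hypothalamus and 6.05 for striatum.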
